A study of Homo sapiens with 8 samples.

Results

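The genes described here are 10 well known members of the cadherin and epithelial to mesenchymal transition (EMT) machinery, looked up by symbol in a table of 28395 genes: the cadherins CDH1, CDH2, CDH6, CDH11 and CDH13, the intermediate filament gene VIM, and the transcription factor genes ZEB1, SNAI1, SNAI2 and TWIST1. All 10 were listed in the table. Of these, 9 had at least 1 read in some library, and 7 reached a normalized read count of 10 in at least 2 libraries, the filter for testing. CDH1, CDH13 and TWIST1 did not reach it.

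The study sequenced polyadenylated RNA of the kidney cancer cell line A-498, an established human line, to ask how the transcriptome differs once ANXA4, the gene of the calcium-dependent membrane-binding protein annexin A4, is targeted. A control line 1 and a control line 2 carried non-targeting guide RNAs (sgRNA-1 and sgRNA-2) and were labelled wild type. The lines labelled ANXA4 KO-1 and ANXA4 KO-2 carried the ANXA4 guides sgRNA-1 and sgRNA-2, and are called the KO-1 line and the KO-2-labelled line here (KO guide 1 and KO guide 2 on the plots). Each of the 4 lines stood for 1 guide and had 2 libraries, so a difference between guides and a difference between single lines cannot be told apart. All cells were seeded in equal numbers and grown for 24 hours to a non-confluent state. Together the control lines and together the KO-labelled lines form the 2 arms. The labels do not say whether replicates 1 and 2 were separate cultures, so p-values measure only the spread between these libraries, which may be technical.

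Libraries held 15784890 to 22631588 reads, and 13290 to 13781 genes had at least 10 reads. Reads of mitochondrial genes took 4.67% to 9.05% of the total in 7 libraries and 13.8% in replicate 2 of the KO-2-labelled line. ANXA4 itself stood at 2821 and 3614 normalized counts in control line 1, then 3858 and 6773 in control line 2, 236 and 234 in the KO-1 line, and 3433 and 4142 in the KO-2-labelled line. ANXA4 was thus low in the KO-1 line and within the control range in the KO-2-labelled line, where the difference from controls was -0.10 on the log2 scale (SE 0.22, limma adjusted p = 0.818). A transcript count does not measure the protein. Directions given below for the KO-2-labelled line are those of a line without a lower ANXA4 transcript. The renal lineage factor genes PAX8 (2987 to 4476 normalized counts) and PAX2 (232 to 412) were present in all 8 libraries, whereas CA9, a marker of clear cell kidney cancer, reached only 2.07 to 24.8. VEGFA (1984 to 6060) and LHX1 (106 to 171), the other 2 genes of this set with values, were present in all 8. NDUFA4L2, also chosen for this set, was not found by symbol and has no value here. The endothelial cadherin gene CDH5, the T cell gene CD3E and the fibroblast gene LUM were at 0 in all 8. Not all markers of these types were absent, as 1 of 4 in each reached 10 in some library. These were the endothelial gene TEK (21.7 to 67.6), the immune gene CD14 (2.76 to 13.3) and the fibroblast gene PDGFRB (1.04 to 19.8).

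Classical cadherins are transmembrane proteins that join neighbouring cells by binding each other across the gap and that are anchored to actin through catenins. E-cadherin, encoded by CDH1, is the usual cadherin of epithelia, whereas N-cadherin (CDH2) and cadherin-6 (CDH6) are the main cadherins of the proximal tubule from which many kidney cancers arise. In EMT, zinc finger factors of the SNAI and ZEB families and the helix-loop-helix factor TWIST1 repress CDH1 and other epithelial genes, and cells gain N-cadherin and vimentin (VIM).

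In all 8 libraries VIM and CDH2 were abundant, and CDH6, SNAI1, SNAI2 and ZEB1 were present. CDH11, the cadherin of mesenchymal cells, was low, CDH1 and CDH13 were close to 0, and TWIST1 was at 0. Differences are given as log2 of normalized count plus 1, and a gene is said to be called where the adjusted p over all tested genes was under 0.05. The members called in single KO-labelled lines were SNAI1 and SNAI2. SNAI1 was lower in the KO-1 line (log2 difference -0.81, SE 0.17, limma adjusted p = 0.0273) and in the KO-2-labelled line (-0.79, SE 0.17, adjusted p = 0.0201), each against the mean of both control lines. SNAI2 was lower in the KO-2-labelled line (-1.87, SE 0.29, adjusted p = 0.00533). CDH11 was called between the control lines themselves, where it was 4.51-fold lower in control line 2 than in control line 1 (adjusted p = 0.00797). CDH1 had 2 reads in control line 1, 6 in control line 2, 4 in the KO-1 line and 16 in the KO-2-labelled line. A link between these few reads and SNAI1 was not tested. These are bulk measurements, in which fewer cells expressing a gene and less RNA per cell cannot be told apart.

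CDH1 (chromosome 16, 68737292 to 68835537 of GRCh38, as are the coordinates that follow) had 28 reads in the whole study. By library it had 1 and 1 reads in control line 1, 3 and 3 in control line 2, 3 and 1 in the KO-1 line, and 7 and 9 in the KO-2-labelled line. The KO-2-labelled line was thus the highest, in both of its libraries, at a level still near the limit of detection. Its pooled level, scaled to library size as RPM, was 0.489 (exact Poisson 95% interval 0.280 to 0.795, covering counting error only). The interval lay above those of control line 1 (0.0549, 0.00665 to 0.198) and the KO-1 line (0.10, 0.0273 to 0.257) and overlapped that of control line 2 (0.162, 0.0594 to 0.352). CDH1 entered the test only when no filter on low values was applied. The difference of the KO-2-labelled line from controls was then 1.82 on the log2 scale of normalized count plus 1 (SE 0.43, limma adjusted p = 0.0395). In that setting 1361 of 20908 genes were called in this comparison. CDH1 was not called there between the arms (0.86, SE 0.60, adjusted p = 0.710) or between the KO-labelled lines (adjusted p = 0.0724). Nor was it called for any difference among the 4 lines (adjusted p = 0.0594).

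CDH2, encoding N-cadherin (chromosome 18, 27932879 to 28177130), was the most abundant cadherin. Its normalized counts were 5649 and 5436 in control line 1, 5850 and 5612 in control line 2, 6057 and 5871 in the KO-1 line, and 4073 and 4538 in the KO-2-labelled line. The 2 libraries of that last line were below the other 6, which spanned 5436 to 6057. The difference from controls in the KO-2-labelled line was -0.39 (SE 0.11, adjusted p = 0.0502), on the edge of the threshold. With the replicate number as a block it was called (adjusted p = 0.00848). In the KO-1 line the difference was 0.08 (SE 0.11, adjusted p = 0.687).

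CDH6, encoding cadherin-6, a type II cadherin of kidney epithelium (chromosome 5, 31193686 to 31329146), read 2113 and 2485 in control line 1, 1706 and 4173 in control line 2, 1040 and 1509 in the KO-1 line, and 1750 and 2324 in the KO-2-labelled line. Both libraries of the KO-1 line were below all other libraries, and the arms overlapped through the KO-2-labelled line. The KO-1 line differed from controls by -0.98 (SE 0.32, adjusted p = 0.104), and by the same amount with an adjusted p of 0.0014 once the replicate number was a block. CDH6 was higher in replicate 2 than in replicate 1 in 4 of 4 lines. The spread inside control line 2 alone, 1706 against 4173, was wider than the gap between the means of any pair of lines.

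CDH11, encoding the type II cadherin-11 of mesenchymal and bone-forming cells (chromosome 16, 64943753 to 65123744), read 172 and 135 in control line 1, 26.7 and 40.8 in control line 2, 68.9 and 74.7 in the KO-1 line, and 95.1 and 106 in the KO-2-labelled line. The 4 lines did not overlap, and both KO-labelled lines lay between the control lines. Control line 2 was lower than control line 1 (log2 difference -2.17, SE 0.27, adjusted p = 0.00797). Without replicate 1 of control line 1 the adjusted p was 0.0807. Against the mean of the controls the KO-1 line differed by 0.01 (SE 0.23) and the KO-2-labelled line by 0.49 (SE 0.23, adjusted p = 0.213). The difference of the arms, 0.25 (SE 0.54), turned to -0.12 under edgeR and DESeq2.

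CDH13, encoding the lipid-anchored T-cadherin, which lacks a cytoplasmic tail (chromosome 16, 82626969 to 83800640), had 16 reads in all: 4 and 0 in control line 1, 0 and 0 in control line 2, 2 and 0 in the KO-1 line, and 6 and 4 in the KO-2-labelled line. As for CDH1, the KO-2-labelled line held most of them. Its level was 0.306 RPM (exact Poisson 95% interval 0.147 to 0.563), against 0.110 (0.0299 to 0.281) in control line 1 and 0.0501 (0.00607 to 0.181) in the KO-1 line. In control line 2 there were 0 of 37067725 reads, which allows a level of up to 0.0809 RPM by the limit of 3 reads for a count of 0 (exact Poisson 95% upper bound 0.0995). The interval of the KO-2-labelled line overlapped those of control line 1 and the KO-1 line. Without the filter on low values the difference of the KO-2-labelled line from controls was 2.14 (SE 0.65, adjusted p = 0.0896).

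VIM, encoding vimentin, the intermediate filament protein of mesenchymal cells (chromosome 10, 17228241 to 17237593), had the highest level of all members. Its normalized counts were 64576 and 83227 in control line 1, 55646 and 81767 in control line 2, 37386 and 42862 in the KO-1 line, and 48712 and 81410 in the KO-2-labelled line. The KO-1 line was below every other library, while the KO-2-labelled line spanned much of the control range. The KO-1 line differed from controls by -0.81 (SE 0.25, adjusted p = 0.0879), a 1.76-fold lower level, and was called with the replicate block (adjusted p = 0.00149). The KO-2-labelled line differed by -0.16 (SE 0.25, adjusted p = 0.743). VIM was higher in replicate 2 in 4 of 4 lines, as CDH6 and SNAI1 were. The mitochondrial share was higher in replicate 2 in both control lines (6.35% against 4.67%, and 9.05% against 6.39%) and in the KO-2-labelled line (13.8% against 6.40%), but not in the KO-1 line (6.23% against 6.43%). Its part in these values was not tested.

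**Figure D1:**
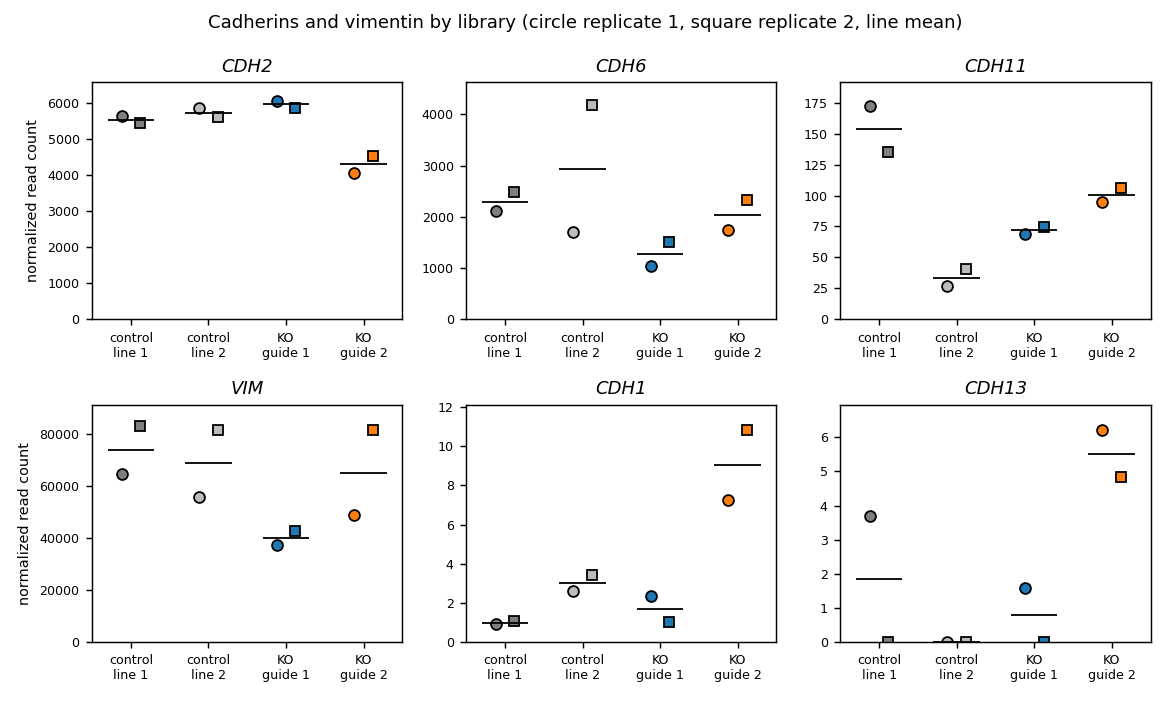
Normalized read counts (vertical axes, linear, from 0) of CDH2, CDH6, CDH11, VIM, CDH1 and CDH13 in each library of the 4 lines; circles are replicate 1, squares replicate 2 and horizontal lines the mean of the 2. CDH2 is lower in the KO-2-labelled line (4073 and 4538), VIM and CDH6 are lowest in the KO-1 line, CDH11 separates the control lines, and CDH1 and CDH13 stay below 11 in every library.

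SNAI1, encoding Snail, the zinc finger repressor best known for silencing CDH1 (chromosome 20, 49982980 to 49988886), read 628 and 815 in control line 1, 624 and 824 in control line 2, 375 and 445 in the KO-1 line, and 393 and 436 in the KO-2-labelled line. All 4 KO-labelled libraries were below all 4 control libraries, whose lowest value was 624. The means were 723 ± 112 (SD, n = 4) in controls and 412 ± 33.6 (SD, n = 4) in the KO-labelled libraries. SNAI1 was the only one of the 7 tested members whose arms did not overlap. Among all tested genes, 10.6% had arms that did not overlap, and 5.51% had all KO-labelled libraries below all controls. Within replicate 1 the KO-labelled lines differed from the controls by -0.70 on the log2 scale, and within replicate 2 by -0.89. The KO-labelled lines, of which only the KO-1 line had low ANXA4, differed from each other by 0.02 (SE 0.20), and the control lines by 0.00 (SE 0.20).

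Leaving out single libraries ended some of these calls. In the KO-1 line the SNAI1 call was lost without replicate 2 of control line 1 (adjusted p = 0.0915), replicate 2 of control line 2 (0.0592), or either library of the line itself (0.224 and 0.123). In the KO-2-labelled line it was lost without replicate 2 of control line 1 (0.0665), or either of its own libraries (0.0876 and 0.0527). Each of these settings kept the direction, and each called fewer of all genes in that line than the fit with every library.

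SNAI2, encoding Slug, the second SNAI repressor (chromosome 8, 48917598 to 48921429), read 461 and 472 in control line 1, 252 and 116 in control line 2, 161 and 118 in the KO-1 line, and 75.5 and 77.3 in the KO-2-labelled line. Control line 1 was the highest and the KO-2-labelled line the lowest, and control line 2 and the KO-1 line overlapped. The KO-2-labelled line was 3.66-fold lower than the mean of the controls, and this call held whichever single library was left out. The KO-1 line differed by -1.03 (SE 0.29, adjusted p = 0.0664), called with the replicate block (0.00478). Control line 2 in turn differed from control line 1 by -1.44 (SE 0.33, adjusted p = 0.0636; 0.00308 with the block). The gap between the control lines was thus as large as the difference between the arms (-1.45).

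ZEB1, encoding a zinc finger and homeodomain repressor (chromosome 10, 31318417 to 31529804), read 346 and 395 in control line 1, 340 and 305 in control line 2, 374 and 466 in the KO-1 line, and 354 and 436 in the KO-2-labelled line. The arms overlapped, and ZEB1 stayed within 305 to 466 in all 8 libraries. It differed from controls by 0.27 (SE 0.16, adjusted p = 0.328) in the KO-1 line and by 0.19 (SE 0.16, adjusted p = 0.51) in the KO-2-labelled line. ZEB1 therefore did not pass the test in either line in which SNAI1 was lower. TWIST1 (chromosome 7, 19113047 to 19117636) was at 0 in all 8 libraries. By the limit of 3 reads, 0 of 146070978 reads allow a level of up to 0.0205 RPM (exact Poisson 95% upper bound 0.0253).

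**Figure D2:**
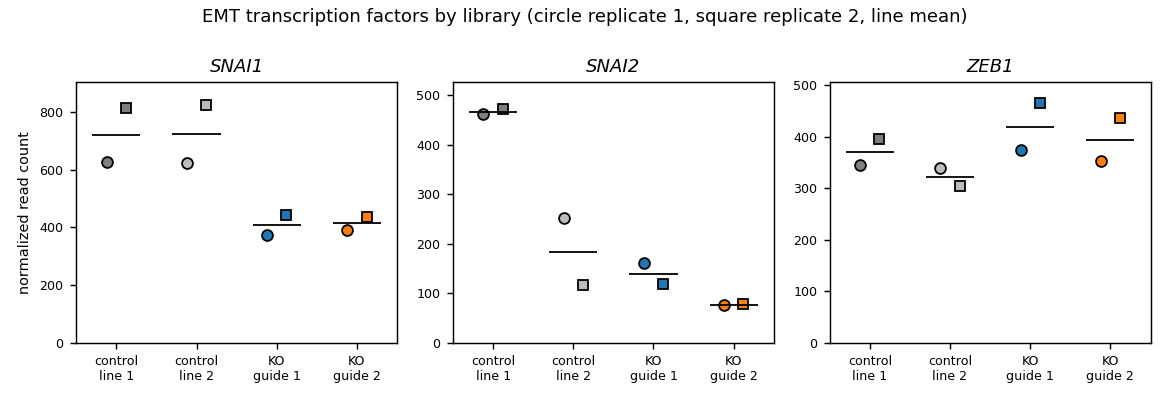
Normalized read counts (vertical axes, linear, from 0) of SNAI1, SNAI2 and ZEB1 in each library; circles are replicate 1, squares replicate 2 and horizontal lines the mean of the 2. SNAI1 is at most 445 in the 4 KO-labelled libraries and at least 624 in the controls, SNAI2 is highest in control line 1, and ZEB1 overlaps between the arms.

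SNAI and ZEB factors bind the E-box CAGGTG, whose reverse complement is CACCTG, so the start site windows of the members in the RefSeq table (250 bases before to 50 after an annotated start, GRCh38.p14) were searched for these letters on both strands. The table held windows for 3 members, CDH2, VIM and ZEB1. Of all 35116 windows in the table, 20.6% held the E-box and 3.49% held at least 2. The 1 window of VIM and the 2 windows of CDH2 held none. ZEB1 had 7 windows, of which 2 held the E-box, with 4 matches in all. The 250 bases before the starts of ZEB1 and VIM are shown because these members share the mesenchymal label but differ in this motif. Both are on the plus strand, at chr10:31318167-31318416 and chr10:17227991-17228240, with the E-box in capitals.
ZEB1: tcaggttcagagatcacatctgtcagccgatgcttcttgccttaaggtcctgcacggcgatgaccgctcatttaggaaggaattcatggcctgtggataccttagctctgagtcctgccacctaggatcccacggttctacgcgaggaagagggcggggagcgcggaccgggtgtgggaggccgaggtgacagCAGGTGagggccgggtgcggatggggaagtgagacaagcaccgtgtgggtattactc
VIM: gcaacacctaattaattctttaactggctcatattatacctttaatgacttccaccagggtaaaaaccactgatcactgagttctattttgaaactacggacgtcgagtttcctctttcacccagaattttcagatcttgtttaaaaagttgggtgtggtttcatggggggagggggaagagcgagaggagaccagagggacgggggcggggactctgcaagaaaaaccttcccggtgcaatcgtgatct
The GC content of these stretches was 59.2% for ZEB1 and 46.0% for VIM. The 4 ZEB1 matches are given with 8 bases on each side. Match a is at chr10:31318352-31318373, with its first base at -57 from the start at 31318417. Matches b, c and d are at chr10:31318966-31318987, chr10:31319123-31319144 and chr10:31319241-31319262, with first bases at -242, -85 and 34 from the start at 31319216. Positions count the start base as 1, with the bases before it numbered backwards from the start.
ZEB1 match a: ggtgacagCAGGTGagggccgg
ZEB1 match b: ccccaccaCACCTGaggaaaac
ZEB1 match c: tcgtaaacCAGGTGcggtgggg
ZEB1 match d: gatggcccCAGGTGtaagcgca
A match describes these letters only; binding was not measured here.

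Levels of different genes were compared after division by the summed exon length (GENCODE v29). That length merges the exons of all annotated transcripts of a gene. It may differ from the bases that were counted, as the counting annotation is not given, and the scale depends on it. On this scale, in normalized counts per kilobase averaged over the 8 libraries, the order was VIM at 12010, CDH2 at 1088, SNAI1 at 337, CDH6 at 173, SNAI2 at 63.9, ZEB1 at 43.6, CDH11 at 6.72, CDH1 at 0.596, CDH13 at 0.182 and TWIST1 at 0. N-cadherin transcript was thus far above E-cadherin transcript in every library: CDH2 ranged from 823 to 1224 per kilobase and CDH1 from 0.149 to 1.76. The ranges over libraries overlapped for the neighbours SNAI1 (222 to 489) and CDH6 (84.0 to 337), for CDH6 and SNAI2 (22.3 to 139), for SNAI2 and ZEB1 (35.2 to 53.8), for CDH1 and CDH13 (0 to 0.555), and for CDH13 and TWIST1. The other neighbours did not overlap. Antisense genes share 12.4% (VIM-AS1) of the VIM exon bases and 4.23% (ZEB1-AS1) of those of ZEB1, and whether the counting used the strand is not given in the sources used here, so a part of these reads may belong to the antisense genes. Antisense overlaps of the other members were 6.94% for TWIST1, 5.62% for CDH1, 2.75% for CDH2, 1.26% for CDH13 and 1.01% for CDH6. On the same strand, the pseudogene DUX4L51 shares 8.96% of the CDH6 exon bases and AC010533.1 shares 1.90% of those of CDH11, and a second antisense gene, AL133415.1, shares 619 of the 5158 exon bases of VIM.

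With the arms compared as the labels define them, KO-labelled against control with the line as a block, 0 of the 7 tested members passed an adjusted p of 0.05, where 0.235% of all 14040 tested genes did (0.264% with the replicate block, again 0 members). At an unadjusted p under 0.05 there were 2, SNAI1 and SNAI2. The differences were -0.80 for SNAI1 (SE 0.18, adjusted p = 0.121; 0.0812 with the replicate block) and -1.45 for SNAI2 (SE 0.47, adjusted p = 0.271). CDH6 differed by -0.64 (SE 0.37), VIM by -0.49 (SE 0.30), CDH2 by -0.15 (SE 0.16) and ZEB1 by 0.23 (SE 0.18), with adjusted p from 0.567 to 0.795. With the 2 libraries of a line treated as independent, SNAI1 was called by edgeR (adjusted p = 0.0268) and DESeq2 (3.94e-05). It was also called in the limma fit with a mean for each line (0.00955). These settings called 1.32%, 6.05% and 10.5% of all genes. Over the 4 line means SNAI1 was not called (limma adjusted p = 0.553). That setting called 0 of 14040 genes, so the missing call is not particular to SNAI1. SNAI2 was called by DESeq2 (0.00401) and with a mean for each line (0.00702), not by edgeR (0.10).

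The KO-1 line, in which ANXA4 was low, had 1 of 7 members called against controls, SNAI1, beside 7.01% of all genes. With the replicate block 4 were called, SNAI1 (adjusted p = 0.000276), CDH6, VIM and SNAI2, all lower, beside 24.4% of all genes. The KO-2-labelled line had 2 of 7 called, SNAI1 and SNAI2, both lower, beside 11.2% of all genes, and 3 with the block, CDH2 in addition, beside 27.4%. Both comparisons use the same control libraries, so their likeness is not independent.

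Lines of the same arm differed as well. Between the control lines 1 of 7 members was called, CDH11, beside 2.13% of all genes; with the replicate block SNAI2 was called too, beside 12.5%. CDH2, CDH6, VIM, ZEB1 and SNAI1 differed between the control lines by -0.20 to 0.22, with adjusted p from 0.726 to 0.997. Between the KO-labelled lines 0 of 7 members were called, beside 6.94% of all genes, with 4 (VIM, CDH2, CDH6, SNAI2) called under the replicate block, beside 24.5%. Under the block the KO-2-labelled line was higher than the KO-1 line in VIM (0.65, adjusted p = 0.0117) and CDH6 (0.69, 0.0217) and lower in CDH2 (-0.47, 0.00797) and SNAI2 (-0.85, 0.0267). Asked whether any of the 4 lines differed, limma's moderated F called 3 of 7 members, CDH11 (adjusted p = 0.00588), SNAI2 (0.00729) and SNAI1 (0.0266), beside 15.1% of all genes, and 6 with the block, every tested member but ZEB1, beside 43%. The CDH11 call held whichever library was left out, the SNAI2 call was lost without replicate 2 of control line 1 (0.0533), and the SNAI1 call was lost without either library of control line 1 (0.0525 and 0.0844) or of the KO-1 line.

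**Figure D3:**
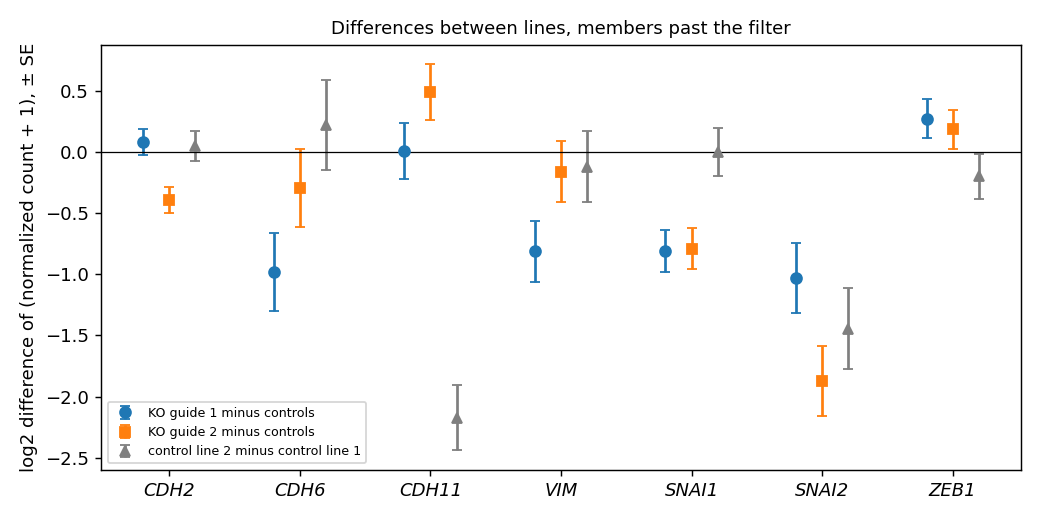
Differences in log2 of normalized count plus 1 (vertical axis, with SE bars) of the 7 tested members for the KO-1 line (blue circles) and the KO-2-labelled line (orange squares) against both control lines, and for control line 2 against control line 1 (grey triangles). SNAI1 sits near -0.80 in both KO-labelled lines and at 0.00 between the controls, while CDH11 differs most between the controls (-2.17).

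Other genes of these pathways were taken from lists. The 14 adherens junction partners, which include the catenins and nectins that link cadherins to actin and to neighbouring cells, were all tested. Between the arms 0 passed and their median difference was 0.02 against 0.00 over all genes. In the KO-1 line 2 of 14 rose, where 7.01% of all genes were called: JUP encoding plakoglobin (1.15, SE 0.19, adjusted p = 0.0116) and AFDN encoding afadin (0.62, SE 0.12, adjusted p = 0.0191). Control line 2 was above control line 1 in JUP by nearly the same amount (1.14, SE 0.22, adjusted p = 0.0411). The JUP call in the KO-1 line was lost without either library of that line (adjusted p = 0.112 and 0.108), and the AFDN call without either library of that line (0.0778 and 0.206) or of control line 1 (0.0653 and 0.0701). In the KO-2-labelled line, the line with lower CDH2 values, 5 of 14 fell, beside 11.2% of all genes called, led by NECTIN3 (-1.20, SE 0.14, adjusted p = 0.0019) and CTNNAL1 (-0.92, SE 0.17, adjusted p = 0.0111). NECTIN3 was also lower in control line 2 than in control line 1 (-0.87, SE 0.16, adjusted p = 0.0345). Of 22 other cadherins and desmosomal cadherins, 16 had reads and 8 were tested; 0 passed between the arms. In the KO-2-labelled line 1 was higher, CDH16, encoding the kidney-specific Ksp-cadherin (1.48, SE 0.26, adjusted p = 0.00989; 0.0652 without replicate 1 of that line), and 1 was lower, CDH10 (-2.45, adjusted p = 0.0263). In the KO-1 line 1 was lower, CDH4 (-1.42, adjusted p = 0.0426). CDH4 and CDH10, both of low counts, were chosen for naming after their values were seen; each call was lost in several settings, CDH4 with each library of the KO-1 and control lines left out in turn (0.0688 to 0.283) and CDH10 with adjusted p up to 0.116. Of 16 other EMT transcription factors 11 were tested and 0 passed between the arms, their median being -0.04. In the KO-2-labelled line 1 was lower, SOX9 (-1.14, SE 0.21, adjusted p = 0.0109; 0.0509 without replicate 2 of that line), and 1 higher, FOXC1 (0.62, SE 0.15, adjusted p = 0.0313), whose call was lost without any library but replicate 2 of control line 2 (0.0502 to 0.107).

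Most epithelial effector genes had positive differences between the arms and most mesenchymal effector genes negative ones, with few calls. The control lines differed in the same way: from control line 1 to control line 2, 13 of 17 epithelial effector genes had positive differences (median 0.48, 3 called higher and 1 lower) and 15 of 18 mesenchymal effector genes negative ones (median -0.52, 3 called lower). Calls over all tested genes stood at 0.235% between the arms and 2.13% between the control lines. Of 15 epithelial transcription and splicing regulators 7 were tested and 1 was called between the arms. This was ELF3, an ETS factor of epithelia, which went from 384 ± 111 (SD, n = 4) in controls to 1446 ± 374 (SD, n = 4) in KO-labelled libraries (1.92, SE 0.29, limma adjusted p = 0.0245). Without replicate 1 of the KO-2-labelled line the adjusted p was 0.118, and without replicate 1 or 2 of control line 1 it was 0.0753 and 0.0623. Without replicate 2 of control line 2 it was 0.0508. Single-line calls of the 7 regulators went both ways. In the KO-1 line 4 of 7 were called, beside 7.01% of all genes. ELF3, KLF4 (0.95, limma adjusted p = 0.0275) and KLF5 (0.96, 0.0359) were higher and FOXA2 was lower (-0.72, 0.0259). KLF5 differed by more from control line 1 to control line 2 (1.14, SE 0.25), though it was not called there (limma adjusted p = 0.0562). Between the control lines ELF3 differed by 0.69, KLF4 by -0.27 and FOXA2 by 0.06. In the KO-2-labelled line ELF3 alone was called, higher, beside 11.2% of all genes. FOXA2 was also lower between the arms but not called (-0.55, limma adjusted p = 0.274). Of 25 epithelial effector genes 17 were tested, 0 passed between the arms, 16 had a positive difference and the median was 0.69. CLDN1, a tight junction claudin, stood at 2027 ± 385 (SD, n = 4) against 4690 ± 1525 (SD, n = 4) (1.18, adjusted p = 0.117) and was called in the KO-1 line (1.54, adjusted p = 0.00327) and the KO-2-labelled line (0.81, adjusted p = 0.0306). The CLDN1 call in the KO-1 line was lost without replicate 2 of that line (0.0578), and in the KO-2-labelled line without either of its libraries (0.0552 and 0.143) or replicate 1 of control line 1 (0.0692) or control line 2 (0.0598). Of 22 mesenchymal effector genes 18 were tested, 13 had a negative difference, the median was -0.67 and 1 fell. This was TNC, encoding the matrix protein tenascin-C, which went from 6812 ± 319 (SD, n = 4) to 3116 ± 300 (SD, n = 4) (-1.13, SE 0.14, limma adjusted p = 0.00916). Over the 4 line means neither ELF3 nor TNC was called, as 0 of 14040 genes were. WNT5A (-2.47, limma adjusted p = 0.0553) and COL1A1 (-1.66, 0.133) did not pass between the arms. With the replicate block WNT5A passed (limma adjusted p = 0.0479). Both genes were called lower in the KO-1 line (limma adjusted p = 0.000385 and 0.000968) and in the KO-2-labelled line (0.00279 and 0.018). Both were also lower in control line 2 than in control line 1, without a call (-1.06 and -0.82, limma adjusted p = 0.0876 and 0.143). In the KO-1 line 7 mesenchymal effector genes were called lower and 0 higher, beside 7.01% of all genes called. In the KO-2-labelled line 6 were called lower and 3 higher, beside 11.2% of all genes called. FN1, encoding fibronectin, was higher there (0.98, limma adjusted p = 0.00435) but lower in the KO-1 line (-1.84, limma adjusted p = 0.000477). FN1 also differed between the control lines, at 17998 and 20159 normalized counts in control line 1 but 521 and 434 in control line 2. The KO-1 line (794 and 896) and the KO-2-labelled line (6744 and 5270) lay between them.

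**Figure D4:**
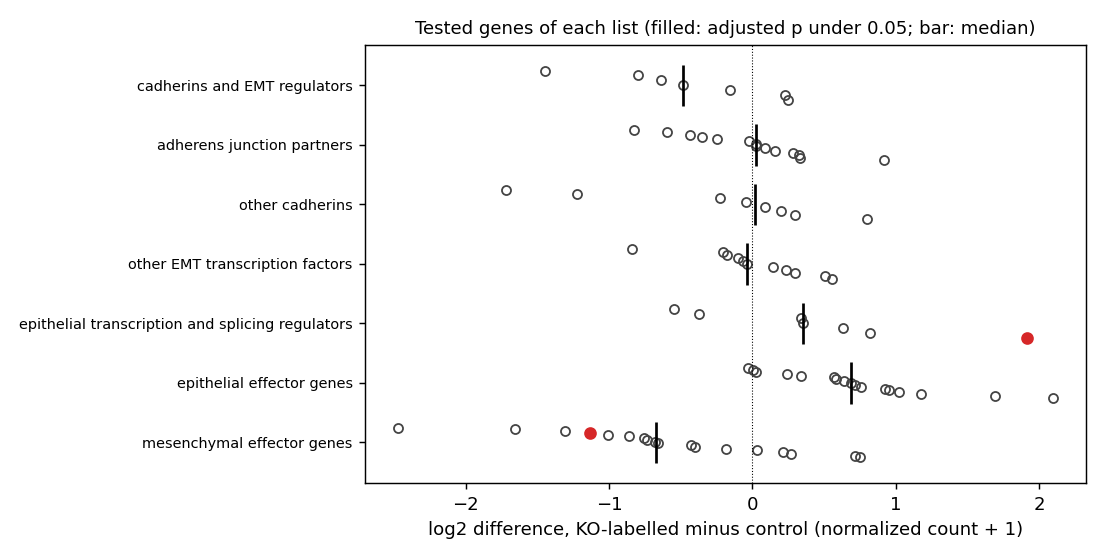
Log2 difference between KO-labelled and control libraries (horizontal axis) for each tested gene of the members and the 6 lists (rows); filled red points passed an adjusted p of 0.05 and black bars are medians. Only ELF3 (1.92) and TNC (-1.13) are filled, epithelial effector genes have a median of 0.69 and mesenchymal effector genes one of -0.67.

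For the 3 members called among the 4 lines, the genes with the most similar pattern over the 8 libraries were taken from 11237 genes with a mean of at least 50, by Pearson's r of log2(normalized count + 1). They were SEMA3B (r = 0.972), PEAK1 (0.960) and UBE2E2 (0.954) for CDH11, PPM1G (0.983), DNLZ (0.979) and UBE2S (0.970) for SNAI1, and EMC1 (0.977), AOX1 (0.976) and RIOX2 (0.975) for SNAI2. The 8 points of each correlation come from 4 lines with 2 libraries each, and the genes were picked as the highest of all compared.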

How the data were processed

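Reads were trimmed with fastp 0.23.2, aligned with HISAT2 2.2.1 to GRCh38 and counted with featureCounts 2.0.1, with DESeq2 2.11.40.8 also named, all per the submitters' processing notes; annotation and strand setting are not given in the sources used here. The values the authors deposited are a signal of normalized read counts per gene, equal to whole reads divided by 1 factor per library: 100% of values above 0 were whole multiples within 0.001, so reads could be recovered. Symbols matched 27745 of 28395 identifiers; the other 650 held 0.0332% of reads. The 14040 genes reaching 10 in at least 2 libraries were tested on log2(value + 1) with limma 3.58.1 (trend, Benjamini-Hochberg over all tested genes, R 4.3.3). The comparison of arms had the line as a random block (correlation 0.33); single lines came from a model with 1 mean per line.

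Alternatives were pseudocounts of 0.1 and 10, no filter, a filter of 50, equal totals, TMM, edgeR 4.0.16 and DESeq2 1.42.0 on the recovered reads (for the arms, with the line ignored), 1 mean per line, line means, each library left out and the replicate number as a block. Replicate numbers come from the sample titles. The change from replicate 1 to 2 correlated across genes between all 6 pairs of lines (r = 0.285 to 0.501), so blocked values are given where they change a member's call or that of a list gene named between the arms. Libraries of a line correlated at 0.978 to 0.987 and differed beyond counting noise (chi-square per degree of freedom 19.4 to 76.0). The members and lists were chosen with earlier results of these data known. All members are described; of each list, the genes called between the arms and those among the 2 largest rises and falls in a comparison (mean of at least 50) could be named. The limma fits were tested on simulated counts of independent libraries, without differences between lines of the same arm.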

Additional observations from a re-analysis of the deposited data

Results flagged for a closer look

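CDH13 was the only member with a control library far from the other 3: replicate 1 of control line 1 stood at 3.68 normalized counts (4 reads), and the other 3 control libraries were at 0. The 18 sets of 4 libraries formed by the 9 members with reads in either arm were examined in this way. By chance the rule marks about 1 in 20 sets of independent, normally distributed values. Counts near 0 from 2 libraries per line are not such values. With the other 3 libraries at 0, any value above 0 would have been marked. With 4 reads behind it, the value carries little precision.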

How the results depend on the processing

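Away from single left-out libraries, 357 values recomputed for the 7 tested members kept their direction and their side of the threshold, 30 passed the threshold newly and 5 reversed. The reversals were all small differences: CDH11 between the arms under edgeR and DESeq2 (-0.12 in both), CDH11 in the KO-1 line with a pseudocount of 10 (-0.0351), and SNAI1 with equal totals, both for the control pair (-0.0285) and for the KO-labelled pair (-0.0169). Members called between the arms numbered 1 with edgeR, 2 with DESeq2 and 2 with 1 mean per line, against 0, while all genes called numbered 186, 850 and 1474 of 14040, against 33. The replicate block gave 4 in the KO-1 line, 2 between the control lines, 4 between the KO-labelled lines and 6 for any difference among lines. DESeq2 gave 4, 2, 1 and 5, and TMM gave 1 between the KO-labelled lines. All genes called rose as well. The main fit called 7.01%, 2.13%, 6.94% and 15.1% of 14040 genes in these comparisons. The replicate block called 24.4%, 12.5%, 24.5% and 43%. DESeq2 called 1440, 655, 1394 and 3029 of 14040, and TMM 1025 between the KO-labelled lines, each more than the main fit. The block changed no other member's call beyond those named with the results above.

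Leaving out a single library left its line with 1 library. Calls over all tested genes were fewer in most of these fits, so a lost call is not particular to a member. Differences that changed sign ranged from -0.0676 to 0.55 (CDH11 between the arms), from -0.14 to 0.16 (CDH11 in the KO-1 line), and in the KO-2-labelled line from -0.62 to 0.0284 (CDH6), -0.53 to 0.21 (VIM) and -0.30 to 0.10 (ANXA4). Between the control lines they ranged from -0.43 to 0.86 (CDH6), -0.40 to 0.16 (VIM) and -0.20 to 0.20 (SNAI1), and between the KO-labelled lines from -0.25 to 0.0691 (ZEB1) and -0.10 to 0.14 (SNAI1). Calls between the arms in the added lists rose most with 1 mean per line, a setting chosen for the lists after seeing the data: 8 of 17 epithelial effector genes against 0 and 9 of 18 mesenchymal effector genes against 1, in a setting that called 10.5% of all genes against 0.235%. In the KO-1 and KO-2-labelled lines the replicate block called 5 and 7 adherens junction partners (against 2 and 5) and 14 and 8 epithelial effector genes (against 5 and 5). It called 24.4% and 27.4% of all genes there, against 7.01% and 11.2%. With single libraries left out these numbers moved too, as did those of the mesenchymal effector genes and of all tested genes. Depth limits CDH1, CDH13 and TWIST1, and 2 libraries per line limit every other member.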
